A study of Homo sapiens with 16 samples.

Results

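The TGFb response of FLASH-depleted PANC-1 cells was read from 4 of the 16 RNA-seq libraries of the series. PANC-1 is an established epithelial line from a human pancreatic ductal carcinoma. The cells had been transfected with siRNA to FLASH, the product of CASP8AP2 and a part of the histone locus body, where replication-dependent histone transcripts are made and cleaved. Of the 4 libraries, chosen by their sample labels, 2 came from cells without TGFb and 2 from cells given TGFb at 100 ng/ml for 48 h. The same treatment of non-transfected cells (4 libraries, 2 without and 2 with TGFb) served for comparison, and the NPAT siRNA and SLBP siRNA cells (4 libraries each) were used for a further comparison. All groups are the same line in the same medium, so the cells without TGFb are the controls within each background. Sample titles put the RNA at day 3, whereas the series text places it 4 days after transfection. The descriptions call the non-transfected cells Mock, and no group with a non-targeting siRNA was analysed here, so transfection itself cannot be told apart from the loss of FLASH wherever siRNA cells are set against cells that were not transfected. Whether libraries 1 and 2 of a group are separate cultures is not stated, so p-values measure the spread between these libraries, which may be technical.

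TGFb binds a pair of receptor kinases at the cell surface, which phosphorylate SMAD2 and SMAD3. Together with SMAD4 these enter the nucleus and raise matrix and cytoskeleton genes as well as inhibitors of the pathway itself, such as SMAD7. In epithelial carcinoma cells the same signal can drive an epithelial-to-mesenchymal transition (EMT), in which E-cadherin (CDH1) falls, N-cadherin (CDH2), vimentin (VIM) and fibronectin (FN1) rise, and repressors of the SNAI and ZEB families are switched on. The stated purpose of the study was to learn what FLASH, NPAT and SLBP do in EMT. The comparison described here asks which genes answer TGFb when FLASH is depleted.

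The FLASH siRNA libraries held 23830133 and 25750245 counts and the FLASH siRNA + TGFb libraries 30217519 and 26332237, within the range of all 16 libraries (23830133 to 30832516). Levels are given in CPM, counts scaled to the size of the library, for each library in the order library 1 and library 2. CASP8AP2, the targeted gene, stood at 10.3 and 13.1 CPM in FLASH siRNA cells and at 12.7 and 10.1 CPM with TGFb, against 52 and 62.4 CPM in non-transfected cells and 51.1 and 57.2 CPM with TGFb. All 4 FLASH siRNA libraries thus lay below all 4 non-transfected libraries, and TGFb moved CASP8AP2 by a log2 change of -0.04 ± 0.17 (SE) with an adjusted p of 0.94. NPAT (55.7 and 47.1 CPM without and 49.5 and 45.7 CPM with TGFb) and SLBP (90.1 and 84.2 CPM and 77.7 and 85.8 CPM) stood beside 53.4 and 48.9 CPM and 71.7 and 63.2 CPM in non-transfected cells without TGFb. Replicate libraries of log2 CPM correlated at 0.985 in each of the 2 FLASH siRNA groups. On the first principal component, which held 43.1% of the variance over all libraries, the FLASH siRNA libraries stood at 71.2 and 62.5. The FLASH siRNA + TGFb libraries stood there at 63.7 and 88.5, so the pairs overlapped. On the second principal component, which held 16.4% of the variance, the FLASH siRNA libraries stood at 39.8 and 44.1 and the FLASH siRNA + TGFb libraries at -25.4 and -21.5. Mitochondrial transcripts took 10.28% and 10.76% of the counts without TGFb and 9.92% and 8.81% with it.

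TGFb changed the level of 733 of the 17743 genes tested in FLASH-depleted cells at an adjusted p below 0.05 (edgeR's quasi-likelihood test with Benjamini-Hochberg adjustment over all genes). Of these, 600 rose (3.38% of the genes tested) and 133 fell (0.75%). The change was at least 2-fold for 347 of the genes that rose and at least 8-fold for 67, while 43 of the genes that fell did so by at least 2-fold and 4 by at least 8-fold. Both TGFb libraries lay on the same side of both libraries without TGFb in all 733 genes, as they did in 9467 (53.4%) of all genes tested. Protein-coding genes made up 91.8% of the genes that rose and 96.2% of those that fell, against 83.3% of the genes tested. With the replicate number as a block the count was 1804, and all 733 genes were kept. Without FLASH siRNA library 1, FLASH siRNA library 2, FLASH siRNA + TGFb library 1 or FLASH siRNA + TGFb library 2 the counts were 243, 280, 352 and 377, and 197 of the 733 genes passed in all 4 of these fits. Where the text gives 4 counts of list members without 1 library, they follow this order. The gene lists overlap, so a gene can count in several of them. Counts of list members stand beside the 3.38% of all genes tested that rose and the 0.75% that fell. With 1 call or none in a direction, a list is not read as a result about its genes.

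The largest rise among genes of at least 5 CPM was that of COL4A1 (ENSG00000187498.14), which encodes an alpha chain of the type IV collagen of basement membranes. It stood at 8.47 and 7.26 CPM without TGFb and at 146 and 200.3 CPM with it, a log2 change of 4.46 ± 0.27 (SE) with an adjusted p of 2.1e-06. COL4A2 (ENSG00000134871.17), the partner chain, went from 13.2 and 10.9 CPM to 172 and 236 CPM (log2 change 4.08 ± 0.29, adjusted p 6e-06). For both genes the TGFb libraries lay far above the others, by 22-fold for COL4A1 and 17-fold for COL4A2, and library 2 was the higher of the TGFb pair. The 2 genes lie head to head on chromosome 13 of GRCh38, with COL4A1 on the minus strand from 110148963 to 110307233 and COL4A2 on the plus strand from 110305812 to 110513209. Their annotations overlap, and the sources used here do not say whether counting used the strand, so reads from the stretch they share could be split between them. The start regions are shown because both genes rose together from opposite strands of 1 shared stretch. Each window, from RefSeq on GRCh38.p14, holds 250 bases before and 50 bases from the gene's start on its own strand, and the capitals mark the 128 bases from one start site to the other, so the capitals of one are the reverse complement of those of the other.
COL4A1: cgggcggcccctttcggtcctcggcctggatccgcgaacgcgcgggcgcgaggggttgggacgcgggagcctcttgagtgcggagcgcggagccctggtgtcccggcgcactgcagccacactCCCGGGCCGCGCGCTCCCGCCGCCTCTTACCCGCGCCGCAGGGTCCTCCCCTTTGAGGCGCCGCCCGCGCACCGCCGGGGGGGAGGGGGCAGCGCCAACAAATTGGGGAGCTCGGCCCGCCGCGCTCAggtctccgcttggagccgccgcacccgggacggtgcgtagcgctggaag
COL4A2: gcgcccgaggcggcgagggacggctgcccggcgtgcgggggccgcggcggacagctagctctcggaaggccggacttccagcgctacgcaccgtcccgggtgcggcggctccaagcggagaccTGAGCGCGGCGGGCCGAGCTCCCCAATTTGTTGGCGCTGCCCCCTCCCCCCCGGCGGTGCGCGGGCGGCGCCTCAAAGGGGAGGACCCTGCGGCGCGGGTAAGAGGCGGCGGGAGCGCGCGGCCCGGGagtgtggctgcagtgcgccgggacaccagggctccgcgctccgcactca
The COL4A1 window runs from 110307108 to 110307407 and the COL4A2 window from 110307034 to 110307333, so that they overlap by 226 bases, and 76.7% and 77.7% of their bases are G or C. Neither window holds the E-box CAGGTG, the SMAD box CAGACA, the AP-1 site TGANTCA or the TATA box TATAAA on either strand. Of all 27305 promoter windows of this length, 20.6% hold the E-box, 16.8% the SMAD box, 7.76% the AP-1 site and 12% the TATA box, so a window without any of them says nothing about which factors bind there.

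TGFBI, a secreted matrix protein named for its induction by TGFb, went from 139 and 127 CPM to 1581 and 1814 CPM (log2 change 3.67 ± 0.15, adjusted p 3.7e-08). COL1A1, a chain of the fibrillar type I collagen, went from 167 and 213 CPM to 2346 and 2139 CPM (3.56 ± 0.40, adjusted p 0.00034). In both genes the TGFb libraries were far above the others, by 12.8-fold for TGFBI and 11.8-fold for COL1A1. Per transcript length, TGFBI reached a mean of 1021 TPM with TGFb in the authors' values, against 856 TPM for COL1A1 and 41.2 TPM for COL4A1. Also among the 15 genes with the highest log2 changes were ADAM19, a membrane metalloprotease (8.74 and 7.96 CPM to 99.5 and 126 CPM, 3.76), PODXL, a sialomucin of the cell surface (2.97), the collagen gene COL22A1 (3.87), the laminin chain gene LAMB3 (3.06), the proteoglycan gene SPOCK1 (3.53), the semaphorin co-receptor gene PLXNA4 (3.53) and NKAIN4 (3.61). NKILA (1.53 and 1.62 CPM to 20.4 and 17.8 CPM, 3.60), a non-coding RNA, lies antisense beside PMEPA1, so without knowledge of the strand setting its reads cannot be told apart from those of its neighbour. MYCT1 went from 2.31 and 1.88 CPM to 13.8 and 31.6 CPM (3.43) with TGFb libraries more than 2-fold apart, and did not pass without FLASH siRNA library 1 (3.57), FLASH siRNA library 2 (3.29) or FLASH siRNA + TGFb library 2 (2.72). CYP4F11, a fatty acid hydroxylase, rose from 0.627 and 0.368 CPM to 11.2 and 9.69 CPM (4.39) but stood at 0.107 and 0 CPM in non-transfected cells and 0.0396 and 0.0359 CPM in those given TGFb.

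The lowest log2 changes were those of MUC16, SDPR and AGR2. MUC16, the mucin that carries the CA125 antigen, went from 19.3 and 28.2 CPM to 4 and 1.87 CPM (log2 change -3.00 ± 0.51, adjusted p 0.0058), and did not pass without FLASH siRNA + TGFb library 2 (log2 change -2.57). AGR2 (ENSG00000106541.11, chromosome 7, 16791811 to 16833433, minus strand), a disulfide isomerase of mucin-secreting cells, went from 71 and 96.7 CPM to 13.1 and 13.6 CPM (-2.65 ± 0.37, adjusted p 0.0016). SDPR, also called CAVIN2, a coat protein of caveolae, went from 13.9 and 11.9 CPM to 1.55 and 1.76 CPM (-2.96 ± 0.31, adjusted p 0.00012). The libraries with and without TGFb did not overlap for any of these. Among the 15 genes with the lowest log2 changes were also SPRY1, an inhibitor of receptor tyrosine kinase signalling (28 and 35 CPM to 11.7 and 8.33 CPM, -1.65), PTGER4, a prostaglandin E2 receptor (38.5 and 39.7 CPM to 15.4 and 15.2 CPM, -1.35), LPAR1, a lysophosphatidic acid receptor (-1.20), TBC1D8 (-1.27) and SECTM1 (-1.55). TNFRSF1B, a TNF receptor, fell by 1.29 on the log2 scale and did not pass without FLASH siRNA library 1 (log2 change -1.14), and NR6A1 (-1.21) did not pass without FLASH siRNA library 2 (-1.03) or FLASH siRNA + TGFb library 2 (-1.08). FAM65C (-1.69), PXDN (-1.30), SLC4A8 (-1.29), RASL11A (-1.24) and IFITM1 (-1.19) passed with all 4 libraries and not without any 1 of them (-1.94 to -1.41, -1.53 to -1.07, -1.37 to -1.23, -1.46 to -1.01 and -1.35 to -1.03). RASL11A also missed the threshold among genes of at least 1 CPM (log2 change -1.25), and all 5 kept their sign.

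**Figure D1:**
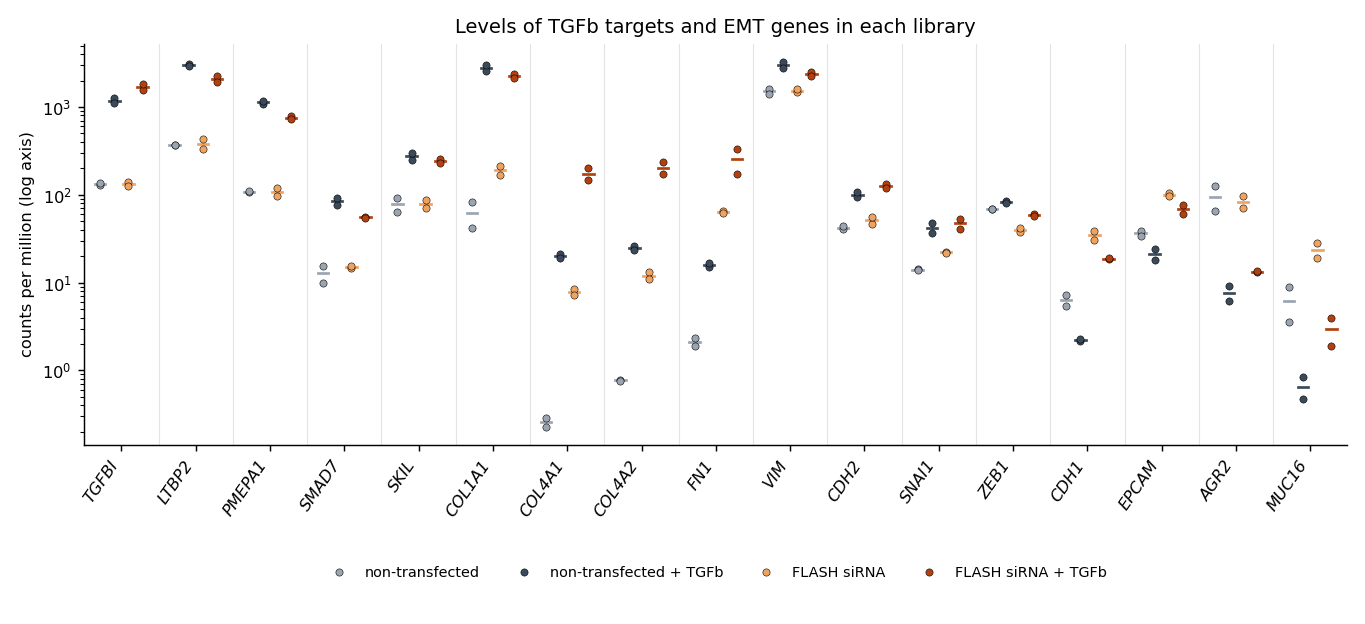
Levels in CPM (log axis) of TGFb targets and EMT genes in each library of non-transfected and FLASH siRNA cells without and with TGFb, with points for libraries and a bar for the mean of each pair. TGFBI and COL1A1 reach 1000 CPM or more with TGFb in both backgrounds, and CDH1, FN1 and COL4A1 stand higher in FLASH siRNA cells than in non-transfected cells both without and with TGFb.

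Of 14 listed genes, most of them of ligands and of proteins that store or release them, 5 rose and none fell. The median log2 change was 0.72 beside -0.006 over all genes tested. With the replicate block 9 rose and 1 fell. TGFB1, a TGFb ligand, rose from 39.6 and 42.5 CPM to 89.5 and 110.3 CPM (log2 change 1.28 ± 0.17, adjusted p 0.00088). LTBP2, a latent TGFb binding protein homologue of elastic fibres, rose from 336 and 426 CPM to 2282 and 1930.0 CPM (2.47 ± 0.13, adjusted p 5e-07). THBS1, the thrombospondin that can release TGFb from its latent complex, rose from 74.6 and 50.4 CPM to 201 and 159 CPM (1.53 ± 0.17, adjusted p 0.0002). The TGFb libraries were the higher in all 3 genes, without overlap. LTBP3, which tethers latent TGFb, passed at a log2 change of 0.77 with all 4 libraries and not without any 1 of the 4 libraries (log2 change 0.69 to 0.84). TGFBI, the matrix protein described above and not a ligand, is the remaining listed member that rose. TGFB2 (77.4 and 93.9 CPM to 147 and 121 CPM, 0.65, adjusted p 0.2), LTBP1 (0.78, 0.087), LTBP4 (0.68, 0.063) and INHBA (2.11, 0.16) did not pass, and passed with the replicate block (adjusted p 0.025, 0.015, 0.0024 and 0.049), as did INHBB (-0.47, adjusted p 0.32, and 0.047 with the block). TGFB3 (-0.56), FURIN (0.60), GDF15 (-0.16) and LRRC32 (-0.42) did not pass in either fit.

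Of 14 receptor and SMAD genes tested, 1 rose, none fell, and the median log2 change was 0.04, with values of -0.06 to 0.06 without 1 library. TGFBR1, the type I receptor kinase, stood at 32.5 and 36.5 CPM without and 38.6 and 37.9 CPM with TGFb (log2 change 0.15 ± 0.10, adjusted p 0.52), and TGFBR2, the type II receptor, at 126 and 152 CPM and 139.7 and 119 CPM (-0.11 ± 0.17, 0.83). The pairs of TGFBR2 overlapped, and those of TGFBR1 lay apart without passing the test. SMAD2 (0.08), SMAD3 (-0.20) and SMAD4 (0.08), which carry the signal to the nucleus, had standard errors of 0.08, 0.13 and 0.09 and did not pass, nor did SMAD1, SMAD5 or SMAD9 of the BMP branch (0.09, 0.00 and 0.07). ACVR1, a type I receptor of the activin and BMP family, rose from 39.1 and 42.7 CPM to 60.4 and 67 CPM (0.64 ± 0.10, adjusted p 0.0028), and did not pass without FLASH siRNA library 1 (log2 change 0.55). TGFBR3, the co-receptor betaglycan, went from 8.08 and 8.33 CPM to 3.21 and 4.41 CPM (-1.11 ± 0.31, adjusted p 0.066, and 0.0044 with the replicate block). ENG (-0.04), ACVR1B (-0.14), ACVR2A (0.43) and ACVRL1 (-1.12) did not pass.

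Of 14 genes that feed back on the pathway 5 rose and none fell, with a median log2 change of 0.79. PMEPA1, a membrane protein that keeps SMAD2 and SMAD3 from the receptor, rose from 97.9 and 118 CPM to 788 and 726 CPM (log2 change 2.81 ± 0.11, adjusted p 3.7e-08). SMAD7, the inhibitory SMAD, rose from 14.5 and 15.6 CPM to 56.2 and 54.8 CPM (1.88 ± 0.19, 0.00012), and SKIL, a SMAD co-repressor, from 71.2 and 87.1 CPM to 253 and 228 CPM (1.61 ± 0.19, 0.00034). All 3 stood higher in both TGFb libraries than in both others. DACT1, known as an antagonist of Wnt and TGFb signalling, rose from 3.49 and 2.91 CPM to 18 and 19.7 CPM (2.56 ± 0.20, 7.5e-06). SKI, the relative of SKIL, rose by a log2 change of 0.47 (0.013) and did not pass without FLASH siRNA library 1 (0.36), FLASH siRNA + TGFb library 1 (0.45) or FLASH siRNA + TGFb library 2 (0.48). The ubiquitin ligase genes SMURF1 (0.67, adjusted p 0.097) and SMURF2 (0.80, 0.12) passed with the replicate block (0.00015 and 0.0089), with which 8 of the 14 rose. SMAD6 (0.36), BAMBI (0.90), TGIF1 (0.36), TGIF2 (-0.28), LDLRAD4 (0.85) and NEDD4L (0.14) did not pass in either fit.

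**Figure D2:**
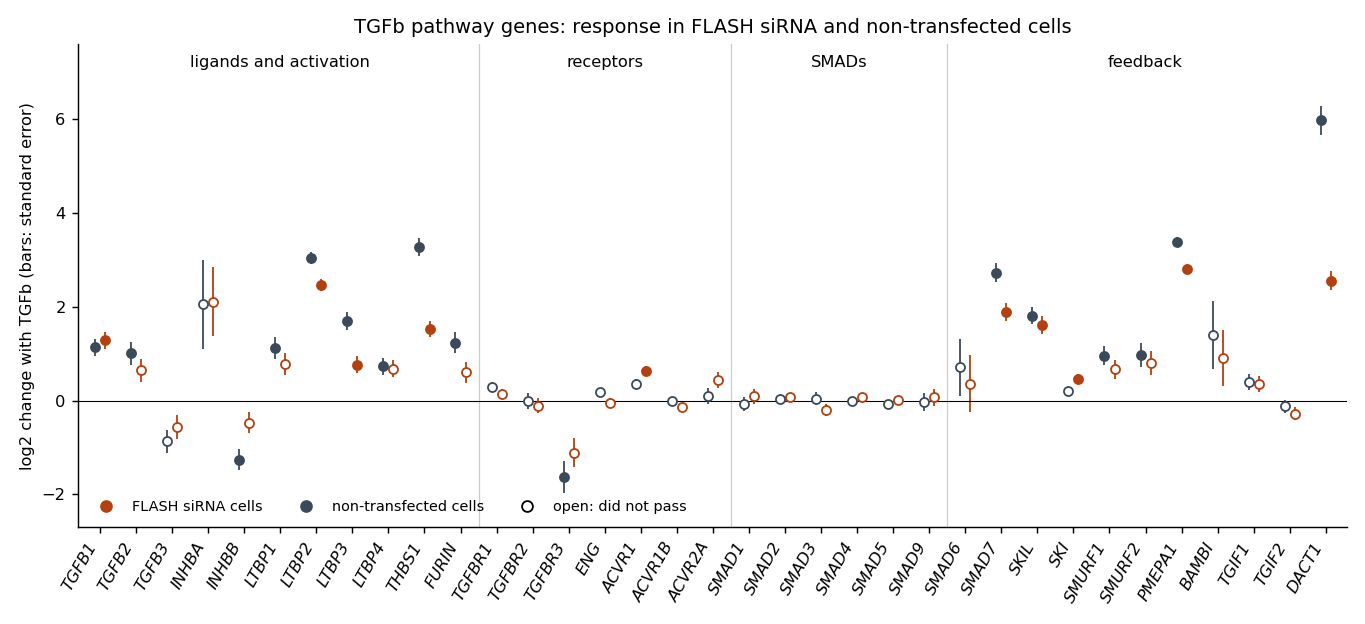
Log2 change with TGFb (points, bars are the standard error) of TGFb pathway genes by role in FLASH siRNA and non-transfected cells, filled where the adjusted p was below 0.05. SMAD2, SMAD3 and SMAD4 lie near 0 in both, PMEPA1, SMAD7 and SKIL rise in both, and DACT1 and THBS1 rise less in FLASH siRNA cells. TGFBI, GDF15, LRRC32, ACVRL1, LDLRAD4 and NEDD4L are not plotted.

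Of 36 known targets of TGFb 33 were tested, 28 rose and none fell, against 3.38% of all genes tested that rose, with a median log2 change of 2.02. Without 1 library 20, 20, 21 and 23 rose. Beyond the genes above, CTGF (also called CCN2), a matricellular growth factor, rose from 568 and 509 CPM to 1935 and 1455 CPM (log2 change 1.65 ± 0.16, adjusted p 7.6e-05). TAGLN, the actin-binding protein transgelin, rose from 14 and 12.6 CPM to 67.3 and 64.7 CPM (2.31 ± 0.15, 2.4e-06), and IGFBP3, which binds insulin-like growth factors, from 8.55 and 7.81 CPM to 56.3 and 66.5 CPM (2.91 ± 0.39, 0.0011). The pairs of libraries stood apart in all of these. ANGPTL4 (2.47), NEDD9 (2.36), LMCD1 (2.13) and JUNB (1.81) rose as well. Targets that rose with all 4 libraries and not without some of them were BHLHE40 (1.96), which did not pass without FLASH siRNA library 1 (2.08), FLASH siRNA library 2 (1.83) or FLASH siRNA + TGFb library 1 (1.86), PDGFB (1.03), without FLASH siRNA library 1 (0.94), FLASH siRNA library 2 (1.10) or FLASH siRNA + TGFb library 1 (0.86), and TUFT1 (0.87), without FLASH siRNA library 1 (0.96), FLASH siRNA library 2 (0.76) or FLASH siRNA + TGFb library 1 (0.66). KLF10, SPHK1 and PTHLH, at log2 changes of 1.13, 1.01 and 1.92, passed with all 4 libraries and not without any 1 of them (1.06 to 1.18, 0.88 to 1.12 and 1.71 to 2.15). Summed over the list, the level went from 4060 and 3968 CPM to 25104 and 22157 CPM.

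Of 19 EMT transcription factor genes tested, 2 rose and none fell, with a median log2 change of 0.37, and with the replicate block 6 rose. SNAI1, which encodes the CDH1 repressor Snail, rose from 22.4 and 21.6 CPM to 41.2 and 53.2 CPM (log2 change 1.10 ± 0.15, adjusted p 0.0008). ZEB1, a further repressor of CDH1, rose from 37.9 and 41.7 CPM to 60.5 and 57.2 CPM (0.56 ± 0.12, 0.015). The TGFb libraries lay above the others for both, but ZEB1 did not pass without any 1 of the 4 libraries (log2 change 0.48 to 0.64). SNAI2 went from 1.41 and 1.29 CPM to 3.93 and 6.76 CPM (1.98 ± 0.65, adjusted p 0.13, and 0.037 with the block), and ZEB2 from 10.2 and 11.3 CPM to 12.3 and 14.9 CPM (0.34 ± 0.18, 0.42). TWIST1 was too low to be tested. Of 17 epithelial transcription factor genes, 1 rose and 1 fell, and with the replicate block 2 fell. FOXA2, a factor of endoderm, fell from 32.1 and 36.7 CPM to 22.9 and 21.2 CPM (-0.64 ± 0.15, 0.034), and did not pass without any 1 of the 4 libraries (log2 change -0.76 to -0.54).

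CDH1 (ENSG00000039068.18, chromosome 16, 68737225 to 68835548, plus strand), which encodes E-cadherin of adherens junctions, fell from 38.4 and 30.8 CPM to 18.4 and 19.2 CPM, a log2 change of -0.88 ± 0.18 with an adjusted p of 0.013. The TGFb libraries were the lower, by a ratio of means of 0.544, but the call was lost without FLASH siRNA library 1 (-0.73), FLASH siRNA + TGFb library 1 (-0.85) or FLASH siRNA + TGFb library 2 (-0.91). In non-transfected cells CDH1 stood at 5.39 and 7.16 CPM without and 2.14 and 2.26 CPM with TGFb, so that FLASH siRNA cells given TGFb kept more CDH1 transcript than non-transfected cells without TGFb. NPAT siRNA cells stood at 31.6 and 27.4 CPM and SLBP siRNA cells at 9.94 and 13.6 CPM without TGFb. Of 39 genes of epithelial adhesion and polarity, 2 rose and 2 fell, the median log2 change was -0.24, and with the replicate block 4 rose and 5 fell. PRSS8, the membrane protease prostasin, rose from 1.25 and 1.55 CPM to 5.45 and 7.86 CPM (2.24, 0.0011). DSG2, a desmosomal cadherin, rose (0.47, 0.031) and PARD6B, a polarity protein, fell (-0.70, 0.026), each with all 4 libraries and not without any 1 (0.40 to 0.53 and -0.77 to -0.65). EPCAM, an epithelial adhesion molecule, went from 105 and 96 CPM to 61 and 76.1 CPM (-0.55 ± 0.15, adjusted p 0.064, and 0.015 with the block), and ESRP1, an epithelial splicing factor, from 16.2 and 13.8 CPM to 9.49 and 9.33 CPM (-0.67 ± 0.33, 0.34). None of 14 keratin genes passed in edgeR (9 had an unadjusted p below 0.05, 4 higher and 5 lower), while 3 rose and 4 fell with the replicate block and 1 rose and 3 fell in DESeq2. KRT19, a keratin of ductal cells, went from 243 and 225 CPM to 109 and 129 CPM (-0.98 ± 0.26, adjusted p 0.066, and 0.0038 with the block).

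Of 37 mesenchymal and contractile genes tested, 18 rose and none fell, with a median log2 change of 0.63, and 7, 8, 12 and 13 rose without 1 library. CDH2, which encodes N-cadherin, rose from 47 and 55.6 CPM to 132 and 119.7 CPM (log2 change 1.29 ± 0.17, adjusted p 0.00083). CALD1, the actin regulator caldesmon, rose from 31.7 and 28.4 CPM to 140.1 and 158 CPM (2.31 ± 0.15, 2.4e-06), and TPM1, a tropomyosin, from 368 and 379 CPM to 1608 and 1430.1 CPM (2.02 ± 0.15, 5.7e-06). Each pair with TGFb lay wholly above the pair without. FN1, fibronectin, went from 65.4 and 62.5 CPM to 171 and 335 CPM (1.98 ± 0.35, 0.0067), with TGFb library 2 well above library 1, and did not pass without FLASH siRNA library 1 (1.99), FLASH siRNA library 2 (1.95) or FLASH siRNA + TGFb library 2 (1.42) or in a fit of the 4 FLASH siRNA libraries alone. Non-transfected cells held FN1 at 1.89 and 2.36 CPM without and 15.1 and 16.8 CPM with TGFb, below FLASH siRNA cells of both kinds. VIM, the intermediate filament vimentin, went from 1464 and 1607 CPM to 2479.8 and 2280.0 CPM (0.63 ± 0.12, 0.011), was among the most abundant transcripts at 1328 TPM without and 2042 TPM with TGFb, and did not pass without FLASH siRNA library 1 (0.54), FLASH siRNA library 2 (0.70) or FLASH siRNA + TGFb library 1 (0.57). FLNA, the actin cross-linker filamin A (1231 and 1211 CPM to 2211 and 1735 CPM, 0.69, 0.027), did not pass without FLASH siRNA library 1 (0.68), FLASH siRNA library 2 (0.68) or FLASH siRNA + TGFb library 1 (0.51). CDH11, a cadherin of mesenchymal cells, rose from 1.61 and 1.22 CPM to 4.2 and 8.63 CPM (2.18, 0.0019), where non-transfected cells stood at 0.464 and 0.419 CPM and 0.594 and 0.539 CPM with TGFb (0.35, 0.77) and the difference of the responses did not pass (1.83, adjusted p 0.84).

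Of 34 collagen genes, 9 rose and none fell, with a median log2 change of 0.32, and 8, 9, 9 and 9 rose without 1 library. The block gave 11 that rose and 2 that fell. COL5A1, a chain of fibrillar type V collagen, rose from 11.1 and 10.7 CPM to 68.8 and 79.3 CPM (log2 change 2.77 ± 0.14, adjusted p 5e-07), COL6A3 from 4.63 and 4.72 CPM to 25.4 and 27.2 CPM (2.49) and COL7A1 of anchoring fibrils from 106 and 129 CPM to 529 and 569 CPM (2.22). COL10A1 rose from 14 counts over the FLASH siRNA libraries to 543 counts with TGFb, a count ratio of 35.5 (95% counting interval 21 to 65.4, for counting error only), while the non-transfected libraries held 1 count without and 5 counts with TGFb. All pairs named here stood apart. Of 25 collagen processing genes, 4 rose and none fell, and 9 rose with the replicate block. LOX, which cross-links collagen and elastin, rose from 5.61 and 5.56 CPM to 26.2 and 31.9 CPM (2.38 ± 0.25, 0.00013), and LOXL4 (1.86) and the prolyl hydroxylase subunit gene P4HA3 (2.29) rose as well. LOXL2 (0.72, 0.022) did not pass without FLASH siRNA library 1 (0.79), FLASH siRNA library 2 (0.63) or FLASH siRNA + TGFb library 1 (0.45). Of 43 matrix glycoprotein and proteoglycan genes 16 rose and none fell, with a median of 0.87 and 11, 11, 14 and 13 without 1 library. FBN1, fibrillin of microfibrils, rose from 13.5 and 13 CPM to 42.6 and 46.6 CPM (1.75 ± 0.13, 5.7e-06). THBS2 (3.08, 0.02) passed on low levels of 0.353 and 0.0737 CPM and 1.62 and 2.02 CPM, and did not pass without FLASH siRNA library 2 (2.35), FLASH siRNA + TGFb library 1 (3.23) or FLASH siRNA + TGFb library 2 (2.92).

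Of 34 matrix protease and inhibitor genes, 7 rose and none fell, and 5, 5, 6 and 7 rose without 1 library. MMP2, gelatinase A, rose from 128 and 159 CPM to 480.5 and 463 CPM (log2 change 1.72 ± 0.29, adjusted p 0.0058), and did not pass without FLASH siRNA library 1 (log2 change 1.55). Its inhibitor TIMP2 rose from 182 and 183 CPM to 346 and 369 CPM (0.97 ± 0.10, 9e-05), and the protease inhibitor SERPINE2 from 52.3 and 47.9 CPM to 153 and 219.8 CPM (1.90 ± 0.25, 0.00085). The pairs of libraries did not overlap for these. ADAM12, a metalloprotease, went from 0.392 and 0.258 CPM to 2.94 and 3.93 CPM (3.39) and did not pass without FLASH siRNA library 2 (log2 change 3.11). Of 23 integrin genes and linkers 9 rose and none fell, and 2, 5, 6 and 4 rose without 1 library. The block gave 11 that rose and 3 that fell. ITGAV, the alpha chain of integrins that free TGFb from its latent form, rose from 243 and 268 CPM to 630.0 and 508 CPM (1.15 ± 0.15, 0.00082). ITGA11, of a collagen receptor, rose from 1.41 and 1.92 CPM to 11.9 and 12.6 CPM (2.87 ± 0.35, 0.00046). ITGB3 (2.16, 0.0055) did not pass without FLASH siRNA library 1 (log2 change 2.00), ITGA2 (1.57, 0.0077) did not pass without FLASH siRNA library 1 (1.44) or FLASH siRNA library 2 (1.68), and ITGB1 (0.55, 0.0091) did not pass without FLASH siRNA library 1 (0.46), FLASH siRNA + TGFb library 1 (0.54) or FLASH siRNA + TGFb library 2 (0.56). ITGB6, of an epithelial integrin, passed at 1.65 with all 4 libraries and not without any 1 of the 4 libraries (log2 change 1.51 to 1.77).

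Of 18 ID and BMP genes 7 rose and none fell, and 2, 2, 3 and 2 rose without 1 library. The block gave 8 that rose and 1 that fell. NOG, the BMP antagonist noggin, rose from 3.88 and 4.53 CPM to 30.6 and 24.8 CPM (log2 change 2.72 ± 0.26, adjusted p 6.2e-05), and FSTL3, an activin antagonist, from 43.6 and 41.3 CPM to 112 and 109.7 CPM (1.38 ± 0.17, 0.00044). Both stood higher in both TGFb libraries. FST, follistatin (1.30), which did not pass without FLASH siRNA library 1 (1.17), FLASH siRNA library 2 (1.43) or FLASH siRNA + TGFb library 2 (0.89), and HEY1, a Notch and BMP target (1.23), which did not pass without any 1 of the 4 libraries (log2 change 1.09 to 1.36), rose with all 4 libraries. Of 33 growth factor and receptor tyrosine kinase genes 5 rose and 1 fell, 2, 2, 2 and 3 rose without 1 library, and 8 rose and 2 fell with the replicate block. IL11, a cytokine of the interleukin 6 family, rose from 14.6 and 19.2 CPM to 54.8 and 60.4 CPM (1.77 ± 0.18, 9e-05), and FGF1 from 0.51 and 0.295 CPM to 2.91 and 3.27 CPM (2.93 ± 0.33, 0.00022). EPHB2 (1.55, 0.029) did not pass without any 1 of the 4 libraries (log2 change 1.48 to 1.61), and ERBB3, the member that fell (-0.76, 0.023), did not pass without FLASH siRNA library 1 (-0.78), FLASH siRNA library 2 (-0.77) or FLASH siRNA + TGFb library 1 (-0.61). Of 25 YAP and TEAD target genes 6 rose and none fell, 3, 4, 4 and 5 rose without 1 library, and 10 rose and 1 fell with the replicate block. GADD45B (1.51, 0.013) was among them and did not pass without FLASH siRNA library 1 (1.63), FLASH siRNA library 2 (1.38) or FLASH siRNA + TGFb library 1 (1.38), as was RBMS3 (1.45 and 1.55 CPM to 6.51 and 4.41 CPM, 1.86, 0.00079).

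Of the cell cycle genes 1 passed the test. None of 45 S phase and E2F genes passed in edgeR, with 2 at an unadjusted p below 0.05, both lower, none in DESeq2 or with the replicate block, and a median log2 change of -0.19, which was -0.09 without FLASH siRNA + TGFb library 1. None of 18 G1 cyclin and CDK inhibitor genes passed in edgeR or DESeq2, with 3 at an unadjusted p below 0.05, all higher, and 4 rose and 1 fell with the replicate block. All 38 G2 and M phase genes had a log2 change below 0, with a median of -0.33 beside -0.31 in non-transfected cells. Over all genes tested in FLASH siRNA cells the median was -0.006, and the share below 0 was not counted. Genes of a list are not independent replicates. Of the 38 G2 and M phase genes, 1 fell, 15 had an unadjusted p below 0.05, 4 fell in DESeq2 and 8 with the replicate block. KIF20A, a mitotic kinesin and the member that fell, went from 47.7 and 50.7 CPM to 31.2 and 34.2 CPM (log2 change -0.59 ± 0.15, adjusted p 0.047), and did not pass without any 1 of the 4 libraries (log2 change -0.66 to -0.53). In bulk RNA, fewer cells in a state and less RNA per cell cannot be told apart.

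Replication-dependent histone genes and their processing factors, which FLASH serves, held no gene that passed in edgeR. Over all genes tested 3.38% rose and 0.75% fell, so few calls would fall in lists of this size, and nothing is read from their absence. Replication-dependent histone transcripts normally end in a stem-loop without a poly(A) tail, and the library kit selects poly(A) RNA, so these values cover polyadenylated forms. Of 70 such genes 39 were tested, none passed in edgeR or DESeq2, 3 had an unadjusted p below 0.05, all lower, and the median log2 change was -0.26. Without FLASH siRNA + TGFb library 1 this median was -0.16, and without FLASH siRNA + TGFb library 2 it was -0.39. Their summed level was 996 and 975 CPM in FLASH siRNA cells and 799.5 and 904 CPM with TGFb, against 108 and 125 CPM in non-transfected cells and 118 and 155 CPM with TGFb. The 4 FLASH siRNA libraries thus all stood above the 4 non-transfected ones, with or without TGFb. None of 22 processing factor genes passed in edgeR, with 1 at an unadjusted p below 0.05, 1 lower in DESeq2 and 2 lower with the replicate block.

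Of 33 interferon response genes 1 fell, 12 had an unadjusted p below 0.05, all lower, 7 fell in DESeq2 and 12 with the replicate block, with a median log2 change of -0.67 beside -0.80 in non-transfected cells. Without FLASH siRNA library 1 the median was -0.31 and none fell, and the summed level of these genes was 1252 CPM in that library and 935 CPM in FLASH siRNA library 2, against 713.5 and 713 CPM with TGFb. IFITM1, a membrane protein that restricts viral entry, was the member that fell, from 80.8 and 63.7 CPM to 30.2 and 33 CPM (adjusted p 0.042), and passed only with all 4 libraries (-1.35 to -1.03 without 1). Of 26 NF-kB target and cytokine genes 1 rose and 1 fell, and 3 rose and 2 fell with the replicate block. CCL2, a monocyte chemokine, rose from 28.9 and 23 CPM to 60.5 and 80.4 CPM (log2 change 1.44 ± 0.19, 0.00072). CXCL1 went from 3.41 and 2.1 CPM to 0.925 and 0.624 CPM (-1.82, 0.013) and did not pass without FLASH siRNA library 1 (-1.45), FLASH siRNA + TGFb library 1 (-2.13) or FLASH siRNA + TGFb library 2 (-1.57). Of 24 p53 target genes, TP53I3, a quinone oxidoreductase, was the 1 that rose (18.2 and 19.9 CPM to 84 and 81.3 CPM, 2.12 ± 0.26, 0.00049). PFKFB3, a regulator of glycolysis (0.76, 0.0027), was the 1 of 28 hypoxia and glycolysis genes that rose, and the amino acid transporter gene SLC7A5 (0.44, 0.031), which did not pass without any 1 of the 4 libraries (log2 change 0.39 to 0.50), was the 1 of 32 unfolded protein and amino acid stress genes that rose. Over all genes tested 3.38% rose, so 1 call in lists of this size lies near that share and is not read as a result about the list. With the replicate block 4 p53 target genes, 3 stress genes and 2 hypoxia genes rose and 1 hypoxia gene fell. None of 24 cholesterol synthesis genes passed in edgeR, with 3 at an unadjusted p below 0.05, 1 lower in DESeq2 and 2 lower with the replicate block. Of 25 listed secretory and lineage genes 14 were tested, and AGR2 and MUC16 were the 2 that fell.

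**Figure D3:**
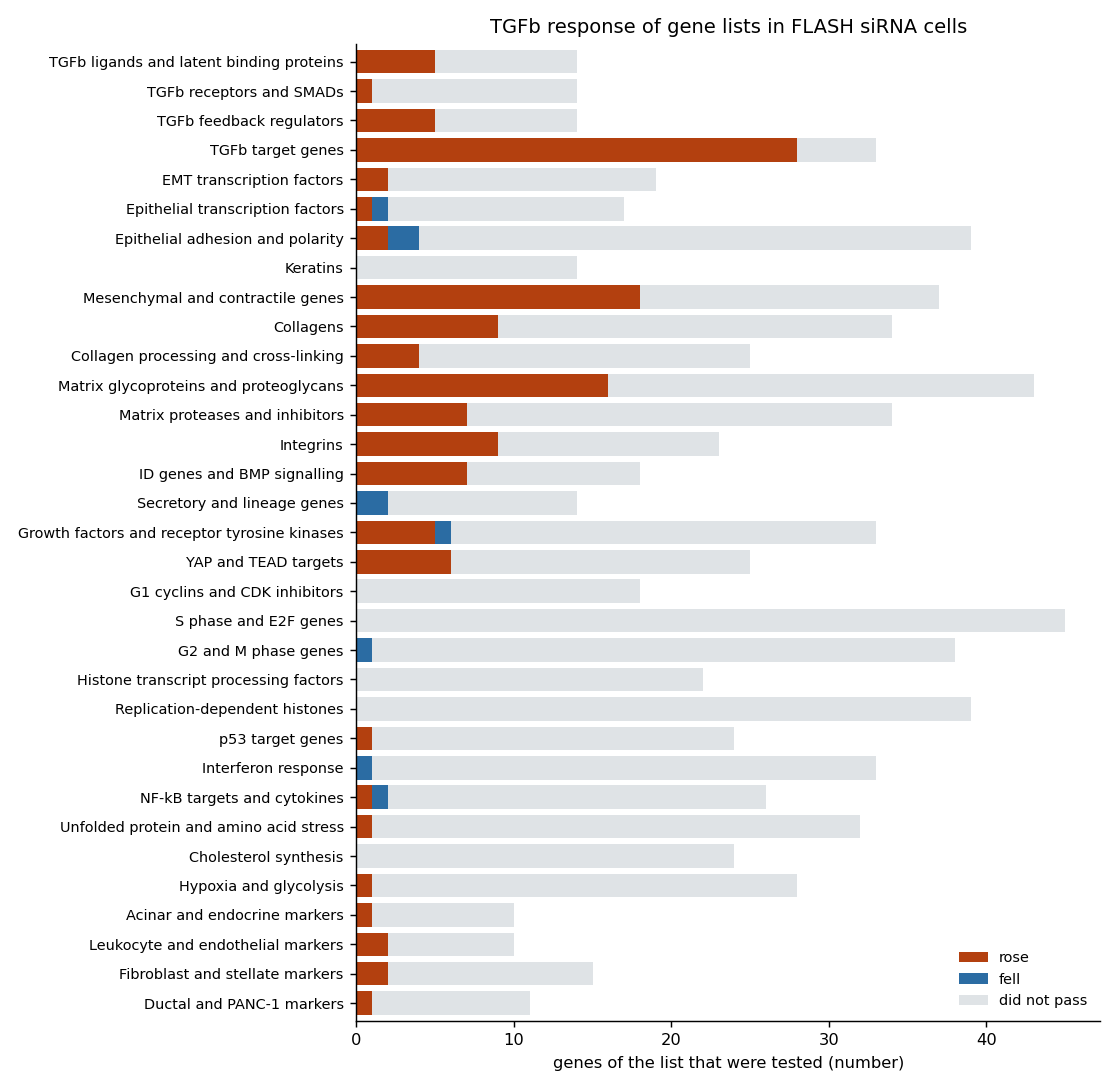
Number of tested genes in each of 33 lists that rose, fell or did not pass with TGFb in FLASH siRNA cells. The bars of TGFb targets, mesenchymal genes and matrix glycoproteins hold 28, 18 and 16 genes that rose, and those of S phase, G1, keratin, histone, histone processing and cholesterol genes hold none that passed.

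Ductal epithelial genes were abundant, as the label of the line has it. KRT8 (641 and 740.3 CPM), KRT18 (542 and 589 CPM), KRT19 and SOX9 (198 and 197 CPM) were among them in FLASH siRNA libraries without TGFb. Of 11 ductal and PANC-1 markers tested VIM rose and none fell, and with the replicate block 2 rose and 4 fell, KRT18 (-0.35, adjusted p 0.075, and 0.025 with the block) among the latter. Of 22 leukocyte and endothelial markers, CD68, a lysosomal protein used as a macrophage marker, had 9878 counts over the 4 FLASH siRNA libraries together and ESAM 3724. The others had 3 to 540, among them VWF with 540, CD8A with 425, CD14 with 211, the endothelial gene PECAM1 with 48, PTPRC, the common leukocyte antigen, with 15 and CD3E with 13. In the same libraries 7 of 31 acinar and endocrine markers, INS among them, had none. The summed level of 10 leukocyte and endothelial markers tested, most of it from CD68 in the libraries without TGFb, was 143 and 120 CPM without and 133 and 157 CPM with TGFb, and that of 15 fibroblast and stellate markers 67.8 and 69.1 CPM and 65.5 and 82.6 CPM. Both ranges overlapped between the groups. In these lists VWF, von Willebrand factor (2.43 and 1.69 CPM to 5.92 and 9.29 CPM, 1.88), which did not pass without any 1 of the 4 libraries (log2 change 1.52 to 2.17), ESAM, a junction molecule (18.5 and 13.8 CPM to 47.9 and 52.4 CPM, 1.63), which did not pass without FLASH siRNA library 2 (log2 change 1.44), POSTN, periostin (0.98 and 0.921 CPM to 3.77 and 5.84 CPM, 2.33), which did not pass without FLASH siRNA library 1 (2.35) or FLASH siRNA library 2 (2.29), and FAP rose. FAP, the fibroblast activation protein, went from 1 count over the FLASH siRNA libraries to 58 counts with TGFb, a ratio of 53.1 with a 95% counting interval of 9.16 to 2134, and its call was lost without FLASH siRNA library 1 (7.77), FLASH siRNA library 2 (4.56) or FLASH siRNA + TGFb library 2 (4.58). Among 10 acinar and endocrine genes tested CHGB rose (0.73), with all 4 libraries and not without any 1 (0.68 to 0.77). The part of these genes in the response as a whole was not tested.

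Set beside the response of non-transfected cells, that of FLASH-depleted cells went the same way in most of the genes called in non-transfected cells. The share of all genes tested that went the same way in both was not counted. In non-transfected cells 801 genes rose (4.51%) and 290 fell (1.63%), 1091 in all, and 2129 passed with the replicate block. Of the 801, 789 had a log2 change above 0 in FLASH siRNA cells and 401 (50.1%) rose there too, with a median of 1.10 in non-transfected and 0.68 in FLASH siRNA cells. Of the 290 that fell, 288 were below 0 in FLASH siRNA cells and 88 (30.3%) fell there, with medians of -0.87 and -0.57. Read the other way, 401 (66.8%) of the 600 genes that rose in FLASH siRNA cells rose in non-transfected cells, with medians of 1.23 in FLASH siRNA and 1.14 in non-transfected cells, and 88 (66.2%) of the 133 that fell. Each set was chosen by its own response, which favours the larger median on that side, so the medians show no difference between the backgrounds by themselves. The change was smaller in FLASH siRNA cells for 685 of the 801 and 261 of the 290. It was smaller in non-transfected cells for 294 of the 600 and 72 of the 133. The same choice acts on these counts, and their difference was not tested. Across genes the log2 changes correlated at a Pearson's r of 0.48, and of 0.83 over 11290 genes of at least 5 CPM, where genes are not independent replicates. RSPO1, a Wnt agonist, was the 1 gene called in opposite directions (3.88 and 3.17 CPM to 1.22 and 1.51 CPM in FLASH siRNA cells, and 0 to 9 counts over the non-transfected libraries), was not called by DESeq2 in FLASH siRNA cells (log2 change -1.38) and passed only with all 4 libraries (-1.52 to -1.22 without 1). Of the 600 genes that rose in FLASH siRNA cells, 31 had 3 or fewer counts over the 4 non-transfected libraries together. The share of all genes tested at this level was not counted. The filter keeps genes that are high in 1 group alone, so nothing is read from these 31.

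**Figure D4:**
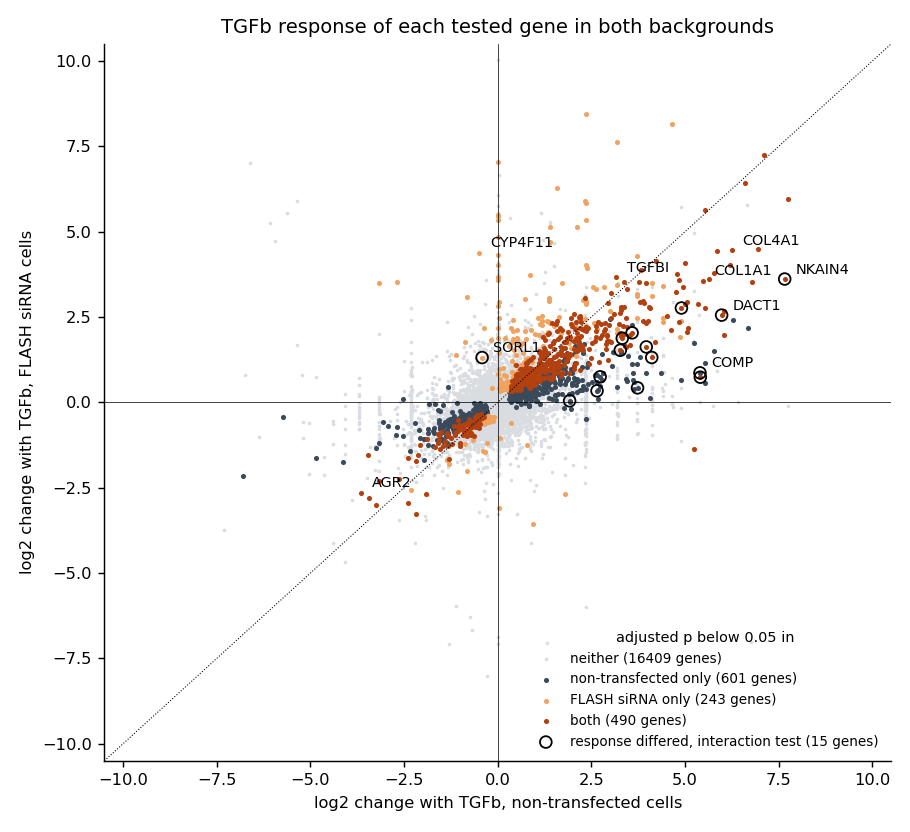
Log2 change with TGFb of each tested gene in non-transfected (horizontal) and FLASH siRNA cells (vertical), coloured by where the adjusted p was below 0.05, with rings on the 15 genes whose responses differed in the interaction test and a dotted line of equal responses. Of the 490 genes called in both, all but RSPO1 moved the same way in both, and 14 of the 15 ringed genes lie below it.

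The difference between the responses was tested directly by the interaction of FLASH siRNA with TGFb. It passed for 15 of 17743 genes, 14 with a smaller log2 response in FLASH siRNA cells (0.0789% of the genes tested) and 1 with a larger response (0.00564%). With the replicate block 28 genes passed and in DESeq2 31. Without 1 of the 8 libraries 7 to 14 passed, the lowest count of 7 being that without non-transfected library 1 and that without non-transfected library 2. In all 14 genes with the smaller response both FLASH siRNA libraries stood above both non-transfected libraries before TGFb, as they did in 38.5% of all genes tested. In 12 of the 14 the mean with TGFb was also higher in FLASH siRNA cells, as in 50.9% of all genes tested. The levels without TGFb enter the interaction with opposite signs in the 2 backgrounds, so choosing genes by a negative value favours those that start higher in FLASH siRNA cells, and nothing is read from the 14. All 14 rose in non-transfected cells, and 9 of them passed in FLASH siRNA cells. FLASH depletion and transfection cannot be told apart in this comparison. The summed level of 15 fibroblast and stellate markers stood at 67.8 and 69.1 CPM in FLASH siRNA cells and at 8.71 and 14.5 CPM in non-transfected cells, most of it from THY1 in FLASH siRNA cells, and its part in these differences was not tested.

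IGF2, the fetal growth factor whose locus overlaps INS-IGF2, stood at 65.6 and 67.3 CPM and 81.4 and 86.9 CPM in FLASH siRNA cells against 6.39 and 5.98 CPM and 41.8 and 36 CPM in non-transfected cells, and its log2 responses differed by -2.31 ± 0.22 (SE, adjusted p 0.001). MDGA1, a glycosylphosphatidylinositol-anchored adhesion molecule, stood at 39 and 35.5 CPM and 40.5 and 36.4 CPM against 4.32 and 4.15 CPM and 17.9 and 14.2 CPM (-1.87 ± 0.21, 0.002). In both genes FLASH siRNA cells without TGFb stood above the level that TGFb gave in non-transfected cells. These levels enter the value by which the genes were chosen, so nothing is read from them. COL5A1 (-2.14 ± 0.22, 0.0018), TMEM92 (-2.34 ± 0.25, 0.0019), NKAIN4 (-4.05 ± 0.45, 0.0022) and HTR1D, a serotonin receptor (-1.55 ± 0.17, 0.0019), rose in both backgrounds. NKAIN4 stood at 0.0714 and 0.19 CPM in non-transfected cells, 7 counts in all against 1430 with TGFb, so its ratio there, 209, has a 95% counting interval of 101 to 521. The calls of these 6 genes passed in all 8 fits without 1 library.

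A further 7 genes with a smaller rise lost their call in some of the fits without 1 library. DACT1 (-3.42 ± 0.40, 0.0034; 0.107 and 0.114 CPM to 6.78 and 7.73 CPM in non-transfected cells), LRRC15 (-3.31 ± 0.40, 0.0041; 16.3 and 11.8 CPM to 16.4 and 21.3 CPM in FLASH siRNA cells) and CYP24A1, the vitamin D hydroxylase (-2.80 ± 0.35, 0.0046; 4.9 and 4.53 CPM to 13.2 and 10.3 CPM), passed in 6 of 8 such fits, not without non-transfected library 1 or non-transfected library 2. The rise of CYP24A1 in FLASH siRNA cells (1.32) did not pass without FLASH siRNA library 2 (log2 change 1.26). THBS1 (-1.74 ± 0.24, 0.013) passed in 3 of 8, GPC4, a heparan sulfate proteoglycan (-1.45 ± 0.20, 0.015), and COMP, a cartilage matrix protein (-4.53 ± 0.69, 0.027), in 1 of 8, and PIK3AP1 (-1.99 ± 0.32, 0.045) in none of 8, at values over these fits no nearer to 0 than -1.42, -1.34, -4.09 and -1.71. COMP had 3 counts in non-transfected cells and 134 with TGFb, a ratio of 45.7 with a 95% counting interval of 15.3 to 224. In FLASH siRNA cells COMP went from 11.1 and 10.3 CPM to 16.9 and 22.1 CPM (0.87, adjusted p 0.1, and 0.028 with the replicate block) and PIK3AP1 from 10.8 and 11.3 CPM to 16.5 and 20.8 CPM (0.75, 0.06, and 0.0029 with the block). SORL1, a sorting receptor of endosomes, was the gene with the larger response. It went from 59.5 and 50.2 CPM to 153 and 119.7 CPM in FLASH siRNA cells (log2 change 1.31 ± 0.19, 0.0013) and stood at 61.3 and 54.6 CPM and 48.1 and 38.8 CPM in non-transfected cells (-0.42, 0.26). The responses of SORL1 differed by 1.73 ± 0.26 (adjusted p 0.027), which passed in 1 of the 8 fits without 1 library (1.54 to 1.91 over these fits). The TGFb responses of NPAT siRNA cells (0.72, 0.039) and SLBP siRNA cells (1.31, 0.00053) were also above 0 for this gene.

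**Figure D5:**
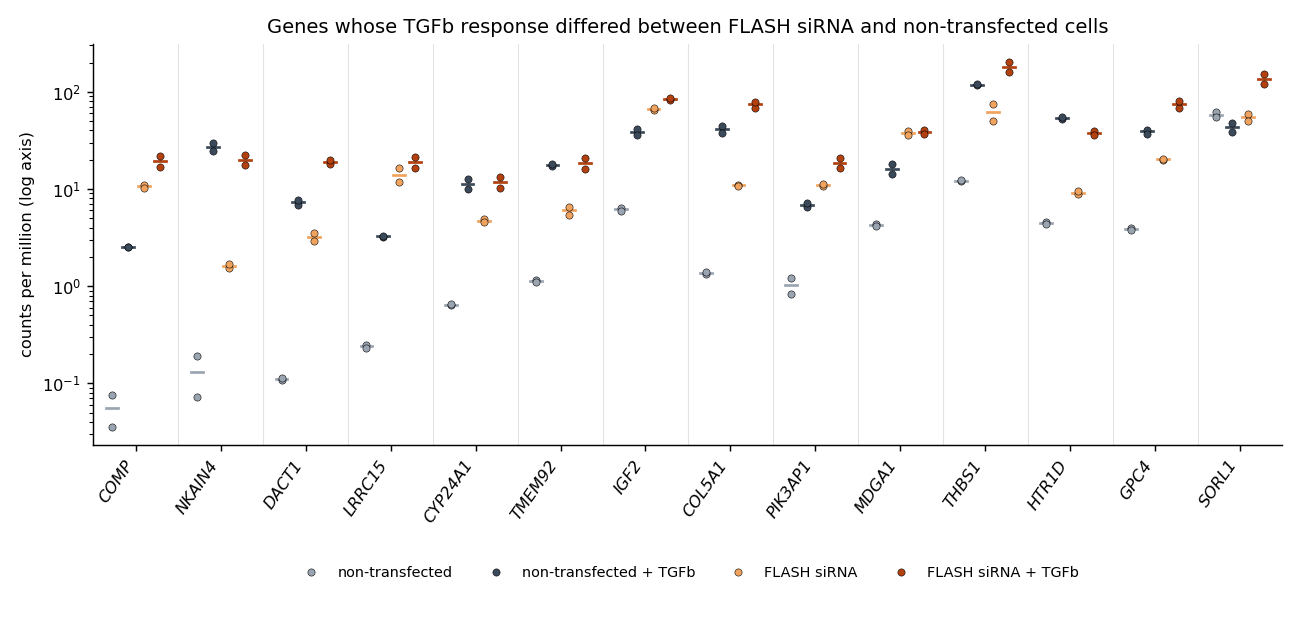
Levels in CPM (log axis) of 14 of the 15 genes whose TGFb response differed between FLASH siRNA and non-transfected cells, with a point for each library and a bar for the mean of each pair. From COMP to GPC4 the FLASH siRNA libraries without TGFb lie above the non-transfected ones, and SORL1 alone rises with TGFb in FLASH siRNA cells while its non-transfected libraries with TGFb lie below those without.

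Set against the responses of the other siRNA cells, which share the 4 FLASH siRNA libraries with each other's comparison, few genes differed. TGFb called 950 genes in NPAT siRNA cells and 2220 in SLBP siRNA cells. Against NPAT siRNA cells 1 gene had a larger response (0.00564%) and none a smaller one (0%) in edgeR, with 383 genes at an unadjusted p below 0.05, 5 genes with the replicate block and 3 in DESeq2. That gene was TGFBI, at 414 and 413 CPM without and 1738 and 1357 CPM with TGFb in NPAT siRNA cells, whose log2 response was larger in FLASH siRNA cells by 1.77 ± 0.19 (adjusted p 0.0082). The FLASH siRNA libraries with TGFb stood at 1581 and 1814 CPM and overlapped with these, and the NPAT siRNA libraries without TGFb stood above the 139 and 127 CPM of FLASH siRNA cells. The call was lost without FLASH siRNA library 1 or 2, over fits of 1.60 to 1.96 without 1 of the 8 libraries. Against SLBP siRNA cells 22 genes had a smaller response in FLASH siRNA cells (0.124%) and 2 a larger one (0.0113%), 142 passed with the replicate block, 107 in DESeq2, and 0 to 58 without 1 of the 8 libraries, the count being 0 without FLASH siRNA + TGFb library 1 and 58 without SLBP siRNA library 1. ITGA11 showed the largest difference (-4.33 ± 0.59, adjusted p 0.019), with 0.196 and 0.282 CPM and 22.4 and 49 CPM in SLBP siRNA cells, and passed in 3 of 8 fits without 1 library (-4.79 to -3.66). FBLN5, an elastic fibre protein (-2.45 ± 0.36), PKP1, a desmosomal plaque protein (-2.51 ± 0.40), MAMDC2 (-2.54 ± 0.33), NKAIN4 (-2.46 ± 0.38) and LRRC15 (-2.26 ± 0.31) also rose less in FLASH siRNA cells, at adjusted p of 0.024, 0.031, 0.019, 0.025 and 0.019, and each lost its call in some of the fits without 1 library.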

How the data were processed

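RNA was taken with an RNeasy kit and made into libraries with the TruSeq Stranded mRNA kit, per the labels' protocols. The submitters' processing notes name STAR 2.4.2a, RSEM 1.2.31 and GRCh38.p10; their settings and the annotation release are not given in the sources used here. The deposited table gives, for 58219 genes, the authors' expected counts, which the RSEM name and the values show to be estimates that need not be whole (2.976% of values needed rounding), and the authors' TPM, transcript levels per length scaled to the library. A further 48 columns match no sample analysed here and were not used. Gene coordinates and types come from GENCODE 29. Counts and lists cover all genes, while single values of some genes are not reported here.

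Expected counts were rounded and tested with edgeR 4.0.16 (quasi-likelihood F test, robust, TMM scaling) over all 16 libraries with 1 mean for each group and 8 residual degrees of freedom, for 17743 genes kept by the filterByExpr function, with Benjamini-Hochberg adjustment and a threshold of 0.05. That filter is met by a gene with enough counts in 1 group alone, so a low gene can pass through the group where it is high. DESeq2 1.42.0 was an alternative. CPM use TMM-scaled library sizes, and the SE of a log2 change is its size over the square root of F. Counting intervals are exact conditional binomial at 95% and cover counting error only. The scripts were tested on simulated data.

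Same-numbered libraries deviated together: over the 28 pairs of groups the correlation of deviations from the group means was 0.141 to 0.785. The lowest, 0.141, was that of the 2 FLASH siRNA groups. The numbers were therefore treated as pairing the samples in the blocked fits, although the labels name no shared batch or day. Blocked values are given where they change a call or move a count by over 1.5 times.

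The groups, gene lists and rules were chosen with earlier results of these data known. Genes were named by these rules: the 3 siRNA targets; the 15 highest and 15 lowest log2 changes among called genes of at least 5 CPM whose groups do not overlap; fixed EMT genes; per list, the 4 called members that changed most, and all members of the TGFb pathway lists; up to 10 genes in each direction of the interaction; the 10 most abundant called genes; and genes called in opposite directions. Other genes named, such as KRT19, CDH11 and ITGAV, were chosen after their values were seen. The promoter table holds a window for fewer than 80% of the genes tested, so a check of motif shares over the genes that rose or fell is void and none is given. Transcripts of chromosome Y copies of shared regions (45 rows) were kept as deposited.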

Additional observations from a re-analysis of the deposited data

Results flagged for a closer look

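The TGFb response differed between FLASH siRNA and non-transfected cells by the interaction test in 15 genes. Among them, the log2 response in FLASH siRNA cells minus that in non-transfected cells was -4.53 for COMP, -4.05 for NKAIN4, -3.42 for DACT1, -3.31 for LRRC15, -2.80 for CYP24A1, -2.34 for TMEM92, -2.31 for IGF2, -2.14 for COL5A1, -1.99 for PIK3AP1, -1.87 for MDGA1, -1.74 for THBS1, -1.55 for HTR1D and -1.45 for GPC4. Choosing genes by a negative value favours those that start higher in FLASH siRNA cells, so nothing is read from their levels without TGFb. The difference was 1.73 for SORL1, which rose in FLASH siRNA cells and did not pass in non-transfected cells. The replicate block kept all 14 of the lower values.

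Tested against NPAT siRNA cells, the response of TGFBI was larger in FLASH siRNA cells by 1.77 on the log2 scale. Tested against SLBP siRNA cells, the 6 genes of at least 5 CPM with the largest differences were ITGA11 at -4.33, MAMDC2 at -2.54, PKP1 at -2.51, NKAIN4 at -2.46, FBLN5 at -2.45 and LRRC15 at -2.26, all smaller in FLASH siRNA cells. These 2 tests share the 4 FLASH siRNA libraries. Groups hold 2 libraries each, so no library could be tested as an outlier within its group.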

How the results depend on the processing

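With the replicate block the counts were 1804 in FLASH siRNA cells, 2129 in non-transfected cells, 28 for the interaction, 5 against NPAT siRNA and 142 against SLBP siRNA, and beyond the counts and genes given with their blocked values it changed no other call of a named gene. With no filter beyond 1 count they were 1490, 1735, 157, 48 and 366. With only the compared libraries they were 1835 in FLASH siRNA cells, 0 against NPAT siRNA and 1 against SLBP siRNA. DESeq2 gave 1014 in FLASH siRNA cells, of which 704 are among the 733, and 31, 3 and 107 for the 3 differences. DESeq2 size factors in edgeR, a mean of at least 1 CPM and the removal of mitochondrial genes kept every count within 1.5 times. Leaving out 1 library gave 243 to 377 in FLASH siRNA cells, 515 to 563 in non-transfected cells, 7 to 14 for the interaction, 0 to 2 against NPAT siRNA and 0 to 58 against SLBP siRNA, where a lone library is assumed to vary like the other groups. Of 167 named genes 120 passed, and none of these changed sign under any of these settings in which it was fitted. A further 9 genes with values near 0, none of which passed, did so. SMAD5 (0.0049) was -0.0045 with DESeq2 size factors and in DESeq2, -0.0037 at a mean of at least 1 CPM and -0.011 without mitochondrial genes. Without 1 library SMAD5 ranged from -0.091 to 0.083, NEDD4L from -0.020 to 0.30, MDGA1 from -0.032 to 0.12, CASP8AP2 from -0.23 to 0.14, SMAD9 from -0.085 to 0.21, SOX9 from -0.055 to 0.12, SMAD4 from -0.023 to 0.16, TGFBR2 from -0.25 to 0.031 and SMAD1 from -0.023 to 0.19. Without 1 library 34 to 47 of the genes that passed no longer did so. Apart from the smaller number of libraries in those fits, the cause of these shifts was not tested. Genes of a few counts, such as FAP and COMP, are limited by depth.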
